A study of Mus musculus with 27 samples.

Results

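The liver X receptor Nr1h3 and 5 genes known as its targets in sterol efflux, Abcg5, Abcg8, Abca1, Abcg1 and Mylip, were followed in the livers of mice on 9 diets. They were chosen by name, and an array probe counted as theirs when the annotation of the Affymetrix mouse array gave it 1 symbol only, and that symbol was one of the 6. Of 45101 probes on the array, 9 belonged to these 6 genes. Probes were used if the mean of at least 1 diet lay above an intensity of 100, or 6.64 on the log2 scale, here called the detection level. This left 1 probe for each of the 6 genes, among 6478 genes kept in all.

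Liver RNA of 27 male C57BL/6 mice, labelled as 10 weeks old, was measured with 1 array per mouse and n = 3 mice per diet after 3 weeks of feeding. The Western diet was high in saturated fat and sucrose, with 42% of calories from fat and added cholesterol. The atherogenic diet was like it but carried more cholesterol and also cholic acid, a bile acid. Restricted mice were given lab chow at 75% of what is eaten freely, so that a difference between them and AIN-93 mice holds both the chow and the restriction. The remaining diets were lab chow, a high-fat diet, a diet with 60% fructose, a diet deficient in essential fatty acids (EFA) and a low n-3 diet with 7% sunflower oil, and the control was the AIN-93 purified diet. For the low n-3 mice the labels name 2 diets, since title and diet tag give a DHA supplement and the description gives the sunflower oil. They were grouped by the description, which is also the diet the methods list. All mice were killed in the morning and were not fasted. Whole liver was used: all 7 hepatocyte markers tested were detected, with albumin (Alb) at a log2 intensity of 16.12 or more on every array, while 0 of 4 cholangiocyte and 0 of 4 T and NK cell markers on the array were. In whole liver, fewer cells of a type and less RNA per cell cannot be told apart.

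Liver X receptors are nuclear receptors that bind oxysterols, which are oxidized forms of cholesterol, and switch on genes that move cholesterol out of cells. Abcg5 and Abcg8 are half-transporters that work only as a pair, and in hepatocytes the pair sits on the canalicular membrane and secretes cholesterol and plant sterols into bile. Abca1 loads cholesterol and phospholipid onto apolipoprotein A-I, the first step in forming high density lipoprotein, and Abcg1 exports sterol from macrophages and other cells. Mylip, also called Idol, is a ubiquitin ligase that sends lipoprotein receptors to degradation. A second sterol sensor, the transcription factor SREBP2, acts the other way and switches on cholesterol synthesis when sterol is scarce.

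Abcg5 (chr17:84658174-84683011) and Abcg8 (chr17:84676302-84700333) lie head to head on mouse chromosome 17, with positions from RefSeq on GRCm38.p6. The promoter windows given for them by RefSeq, from 250 bases before to 50 bases after a transcription start, are shown because the transcript pair moved together in these data. The start of Abcg5 and the nearer start of Abcg8 lie 110 bases apart, so the windows overlap in 209 bases (chr17:84682962-84683170). These shared bases are in capitals, each window is read 5′ to 3′ on its own gene's strand, and so the capitals of one are the reverse complement of the other. Abcg8 has another RefSeq start farther upstream, within the extent of Abcg5, whose window is not shown.
Abcg5, chr17:84682962-84683261, minus strand: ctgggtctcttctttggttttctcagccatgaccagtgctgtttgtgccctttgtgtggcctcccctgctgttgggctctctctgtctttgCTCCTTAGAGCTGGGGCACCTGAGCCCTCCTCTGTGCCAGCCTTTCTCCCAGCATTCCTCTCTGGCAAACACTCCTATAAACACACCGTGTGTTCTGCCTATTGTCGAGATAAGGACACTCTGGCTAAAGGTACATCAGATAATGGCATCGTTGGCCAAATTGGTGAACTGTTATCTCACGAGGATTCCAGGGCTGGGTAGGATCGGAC
Abcg8, chr17:84682871-84683170, plus strand: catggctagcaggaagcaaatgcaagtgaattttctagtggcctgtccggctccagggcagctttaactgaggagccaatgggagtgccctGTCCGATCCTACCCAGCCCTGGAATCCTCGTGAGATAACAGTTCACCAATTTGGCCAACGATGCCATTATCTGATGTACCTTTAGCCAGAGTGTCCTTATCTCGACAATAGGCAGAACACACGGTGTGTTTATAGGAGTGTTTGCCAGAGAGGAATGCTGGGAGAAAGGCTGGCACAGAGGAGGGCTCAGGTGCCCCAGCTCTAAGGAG

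The shared stretch holds 3 copies of GATAA, the core of sites bound by GATA factors, counted on both strands with overlaps allowed. A window with 3 or more was found in 0.938% of the 32851 promoter windows in the table. Liver X receptors with their partner RXR bind the motif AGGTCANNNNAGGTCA, called DR4, where N is any base. No window of these genes (none was used for Abcg1) held DR4 without a mismatch on either strand, and 5 of the 32851 windows did. The Abca1 window had the closest match, with 3 mismatches in the 12 fixed positions, between 67 and 52 bases before the start, and it is shown with that match in capitals (on the motif's own strand it reads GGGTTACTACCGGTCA). A match with at most 3 mismatches was present in 21.9% of all windows. The windows of Abcg5, Abcg8 and Nr1h3 needed 4 mismatches, as 76.9% of windows allowed, and Mylip (chr13:45389742-45411940) needed 5. These matches describe the letters of the windows only.
Abca1, chr4:53159846-53160145, minus strand: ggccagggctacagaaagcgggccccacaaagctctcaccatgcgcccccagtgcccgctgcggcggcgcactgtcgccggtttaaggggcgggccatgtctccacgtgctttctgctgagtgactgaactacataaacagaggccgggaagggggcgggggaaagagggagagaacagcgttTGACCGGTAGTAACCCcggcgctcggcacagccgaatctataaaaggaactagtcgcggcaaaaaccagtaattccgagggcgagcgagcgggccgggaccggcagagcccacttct

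Differences from AIN-93 were fitted in limma with all 27 arrays. P was adjusted jointly for 6478 genes and 8 diets, and a gene was called at an adjusted p of 0.05. The members responded on 3 diets. On the Western diet 3 of 6 members were called, all higher (Abcg5, Abcg8 and Abca1), while 8.78% of all genes were called there. On the atherogenic diet the same 3 genes were called higher, and 14.9% of all genes were called. Abcg1 was called there too, but its probe was kept only because of the atherogenic mice, so its call does not count as support. Under diet restriction 4 of 6 were called, with Abcg5, Abcg8 and Mylip higher and Abca1 lower, among 29.5% of all genes. Lab chow, high fat, high fructose, the EFA-deficient and the low n-3 diet gave 0 of 6 each by limma, where 4.21%, 9.34%, 3.91%, 5.51% and 1.07% of all genes were called. At an unadjusted p of 0.05 limma gave 1 member on lab chow and 0 on each of the other 4 of these diets, and Dunnett's test gave 0 on each. The median log2 difference of the 6 members was 0.47 on the Western diet, 1.35 on the atherogenic diet and 0.45 under diet restriction. The medians over all genes were -0.03, 0.03 and -0.03. The atherogenic median lay between the differences of Abcg1 (2.09) and Abca1 (0.61), so it rests partly on Abcg1. Without Abcg1 the middle value of the other members there was the 0.61 of Abca1.

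**Figure D1:**
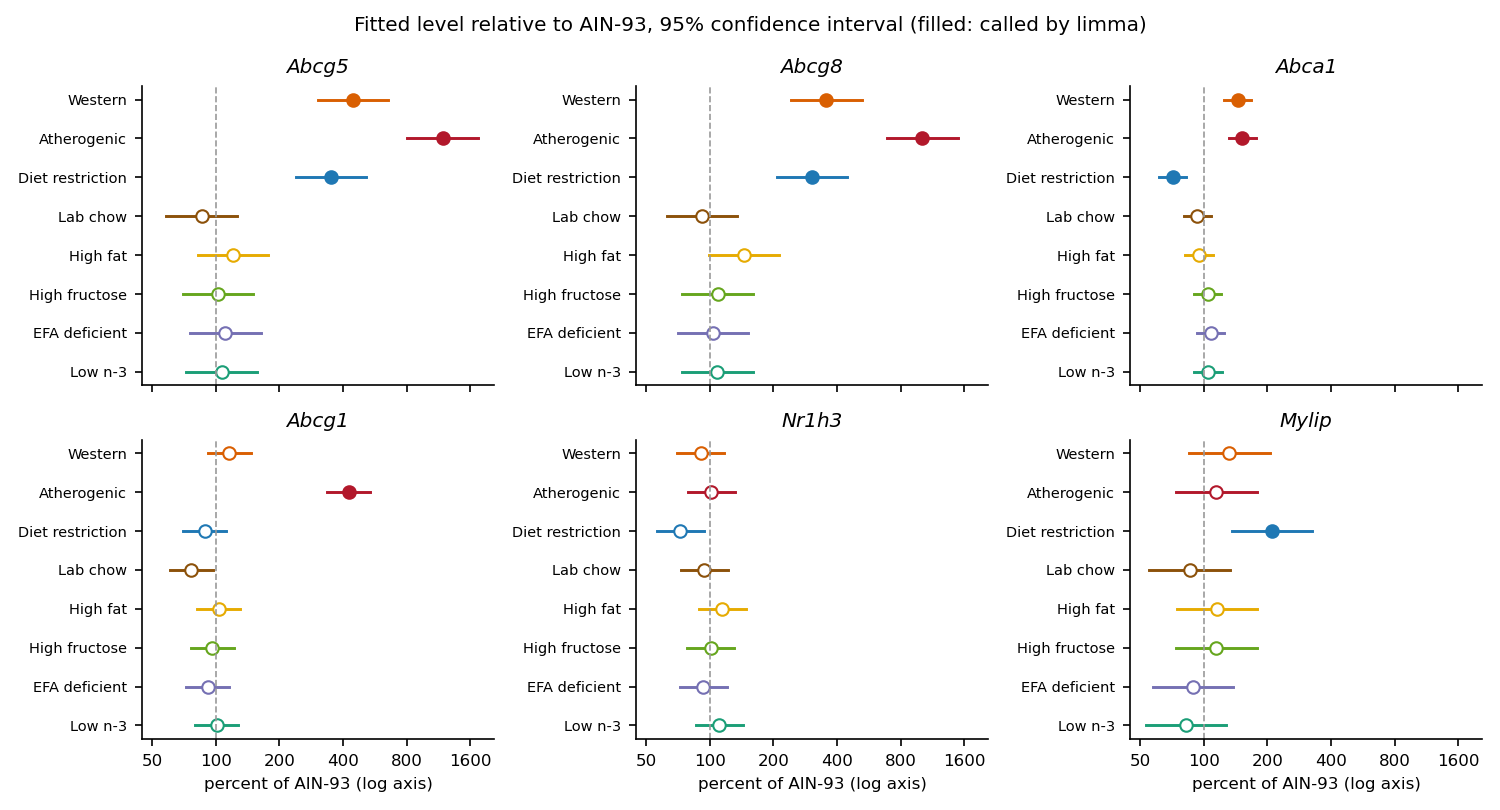
Fitted level of each gene on 8 diets as percent of AIN-93 on a log axis, with the 95% confidence interval from limma over 27 arrays (n = 3 mice per diet) and filled points for calls. Abcg5 and Abcg8 were filled on the Western, atherogenic and restricted diets, Abca1 on the same 3 diets but to the left of 100% under diet restriction, Abcg1 on the atherogenic diet and Mylip under diet restriction.

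The Abcg5 and Abcg8 transcripts had the widest range of the 6 genes. Abcg5 had log2 intensities of 12.24, 12.73 and 12.63 on the atherogenic diet, against 9.16, 8.81 and 8.93 on AIN-93. The fitted level was 1183% of control (805 to 1737, adjusted p = 8.0e-09 by limma), where the range beside a percent is its 95% confidence interval, here and for the values that follow. On the Western diet Abcg5 had 11.47, 10.83 and 11.06, or 445% of control (303 to 653, adjusted p = 1.1e-05 by limma). Diet-restricted mice had 11.04, 10.69 and 10.59, or 350% of control (238 to 514, adjusted p = 9.3e-05 by limma). No mouse on these 3 diets overlapped any control mouse.

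Abcg8 followed the same order of diets. Its log2 intensities were 10.65, 10.89 and 11.08 on the atherogenic diet, against 7.42, 7.77 and 7.43 on AIN-93, a fitted level of 1012% of control (689 to 1486, adjusted p = 2.1e-08 by limma). The Western diet gave 9.73, 9.10 and 9.27, or 355% of control (242 to 522, adjusted p = 8.1e-05 by limma). Diet restriction gave 9.09, 9.41 and 8.92, or 304% of control (207 to 446, adjusted p = 3.5e-04 by limma). For both genes the atherogenic arrays stood above every other array, while the Western and restricted arrays overlapped each other.

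The tests also covered 3 pairs of diets other than those with AIN-93, each adjusted on its own. Atherogenic against Western, which differ mainly by cholesterol and cholic acid, gave Abcg5 at 266% of the Western level (181 to 391, adjusted p = 9.0e-04 by limma) and Abcg8 at 285% (194 to 418, adjusted p = 4.8e-04 by limma). Of all genes 17.8% were called, and Abcg1, with the same limit as above, was the third member called. Western against high fat called Abcg5, Abcg8 and Abca1, against 4.26% of all genes. These diets differ in added cholesterol but also in the amounts of fat, sucrose and protein. Abcg5 was at 369% of the high-fat level (251 to 542, adjusted p = 1.2e-04 by limma) and Abcg8 at 245% (167 to 360, adjusted p = 0.0073 by limma). Diet restriction against lab chow, the same food at a lower amount, called 4 of 6 members, against 36.8% of all genes. Abcg5 was at 409% of the lab chow level (278 to 600, adjusted p = 4.6e-06 by limma) and Abcg8 at 331% (226 to 486, adjusted p = 3.3e-05 by limma).

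**Figure D2:**
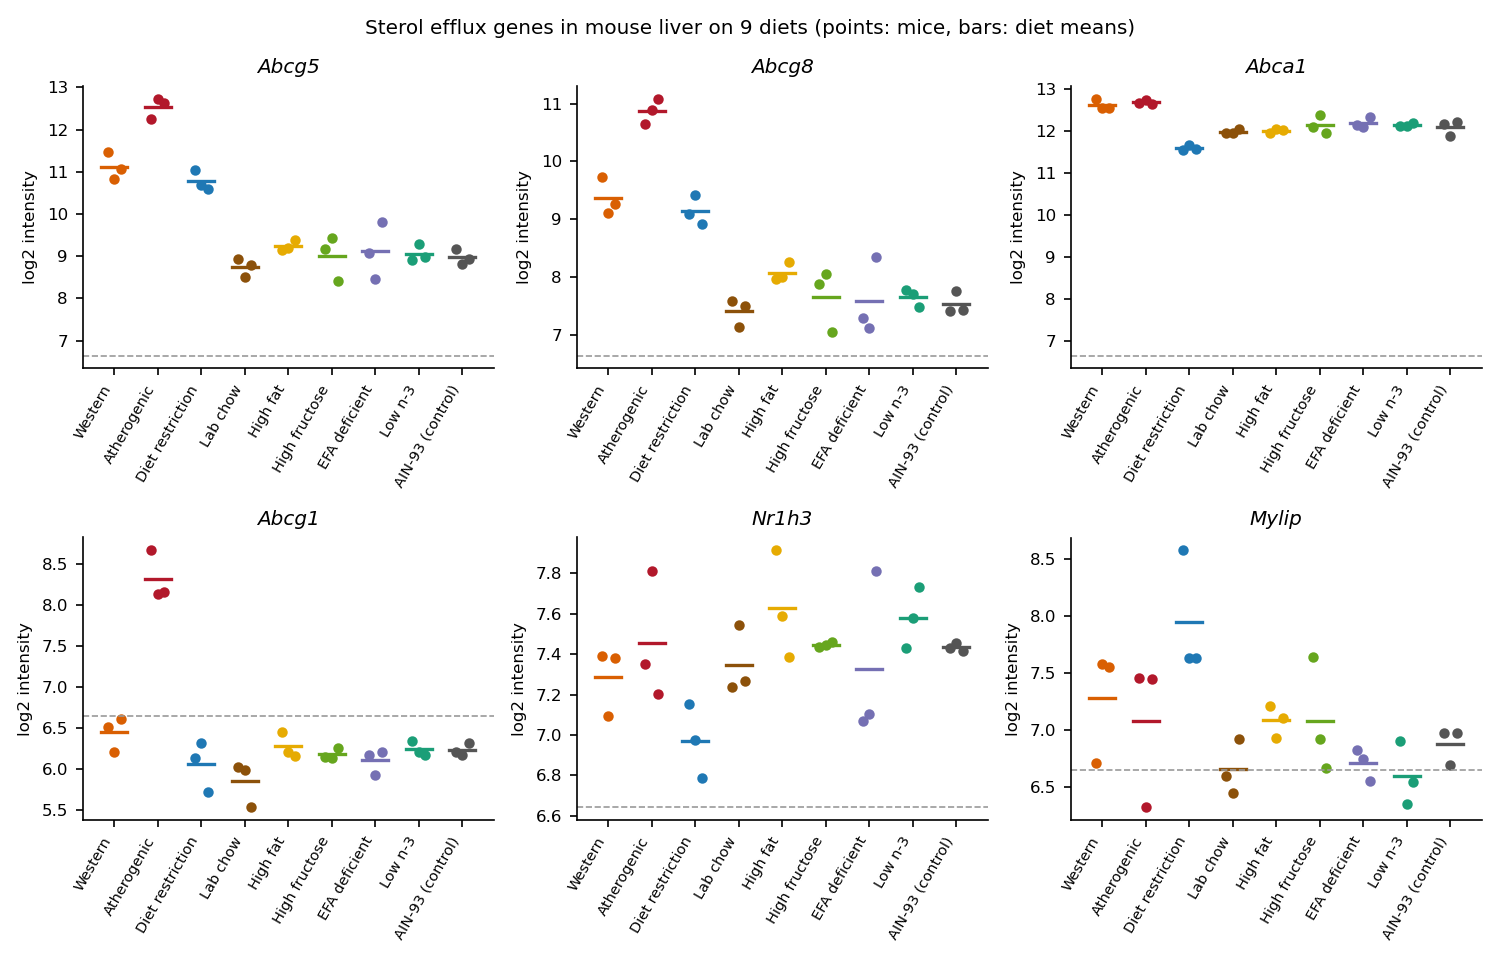
Log2 intensity of the kept probe of each gene (y axis) in the 3 mice of each of 9 diets (x axis), with points for mice, bars for diet means and a dashed line at the detection level of 6.64. The atherogenic mice lay at 12.24 or above for Abcg5 and at 8.14 or above for Abcg1, whose other 24 arrays lay below the dashed line.

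On the remaining 5 diets neither gene of the pair was called. Their intervals reached from 58.3% to 177% of AIN-93 for Abcg5 and from 62.5% to 213% for Abcg8. The fitted levels lay between 85.6% and 121% for Abcg5 and between 91.8% and 145% for Abcg8. The highest of these was Abcg8 on the high-fat diet, at 7.96, 8.00 and 8.26 against 7.42, 7.77 and 7.43 on AIN-93. Its arrays did not overlap those of control, but the difference missed the threshold (adjusted p = 0.23 by limma) and its interval ran from 98.9% to 213%. In the EFA-deficient and high-fructose mice, whose spread was widest (SD of 0.68 and 0.52 for Abcg5), individual mice also differed together. In the EFA-deficient mice, replicate 3 had the highest Abcg5 (9.81, against 9.08 and 8.46) and the highest Abcg8 (8.35, against 7.29 and 7.12). In the high-fructose mice, replicate 3 had the lowest of both, 8.42 for Abcg5 and 7.05 for Abcg8. On the Western, lab chow and high-fat diets the same mouse was highest for both genes. On AIN-93 and on the atherogenic, restricted and low n-3 diets the highest mouse differed between the genes.

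Over the 27 arrays Abcg5 and Abcg8 correlated with a Pearson r of 0.99 and a Spearman rho of 0.93. Of 6477 other genes, each was the gene most like its partner. Over the 9 diet means r was 0.99, and over deviations of each mouse from its own diet's mean r was 0.83. These values describe 27 arrays that share a normalization, and arrays of 1 diet are not independent of each other. Next in likeness to Abcg5 came Adam11 (r = 0.87) and Fmo5, a flavin monooxygenase (r = 0.87). For Abcg8 they were Scarb1, the receptor that takes up cholesterol from high density lipoprotein (r = 0.87), and Fmo5 (r = 0.87). Most opposite to both was Tm7sf2, a sterol reductase of cholesterol synthesis (r = -0.93 with Abcg5 and r = -0.92 with Abcg8), followed by the synthesis genes Dhcr7 for Abcg5 (r = -0.91) and Fdps for Abcg8 (r = -0.88).

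**Figure D3:**
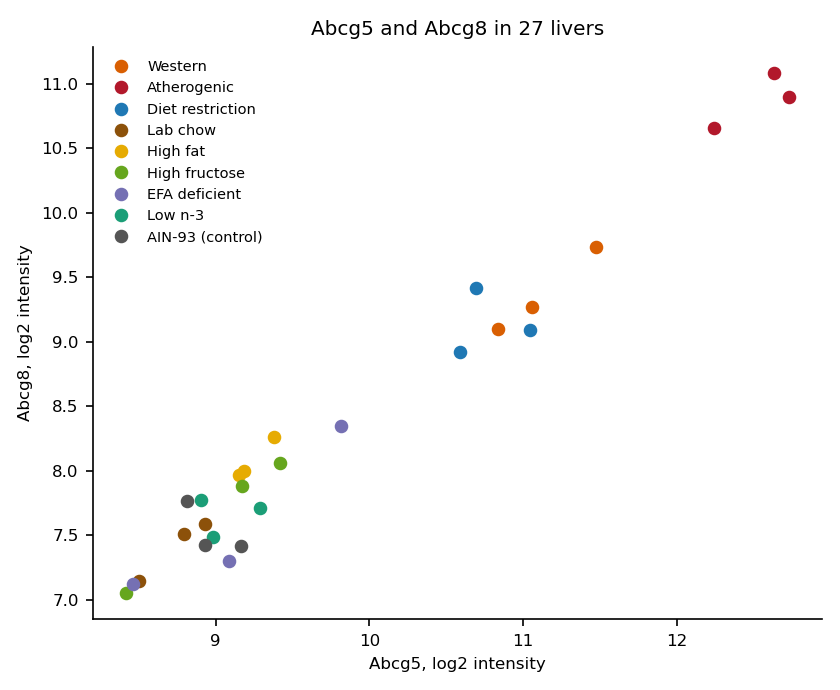
Log2 intensity of Abcg5 (x axis) and Abcg8 (y axis) in 27 livers, 1 point per mouse, coloured by diet. The points follow 1 line (r = 0.99), with atherogenic mice at its upper end, Western and diet-restricted mice mixed in its middle, and the other mice at 9.81 or below for Abcg5.

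Abca1 was higher on both cholesterol diets, by less in fold terms than Abcg5 and Abcg8, and lower under diet restriction. On the atherogenic diet its log2 intensities were 12.66, 12.74 and 12.64, against 12.15, 11.88 and 12.20 on AIN-93, or 152% of control (131 to 177, adjusted p = 4.4e-04 by limma). The Western diet gave 12.76, 12.53 and 12.53, or 145% of control (125 to 168, adjusted p = 0.0017 by limma). Diet-restricted mice had 11.54, 11.65 and 11.56, below every control mouse, and Abca1 fell to 71.1% of control (61.3 to 82.5, adjusted p = 0.0033 by limma). Some markers of other cells were also lower in restricted mice than on AIN-93, in a comparison that called 29.5% of all genes. Of 11 detected Kupffer cell markers 2 fell, Clec4f to 33.2% and Mpeg1 to 30.5% of control (adjusted p = 0.0016 and 0.0041 by limma). Of 5 stellate cell markers 1 fell, Col3a1, to 22.7% (adjusted p = 0.0023 by limma). Against lab chow, where 36.8% of all genes were called, 0 of the 11 Kupffer cell markers fell and 1 rose, Cd163. Col3a1 was again lower (34.4%, adjusted p = 0.0077 by limma). Clec4f was already lower on lab chow than on AIN-93, at 46.8% (adjusted p = 0.026 by limma). The summed intensity of the Kupffer cell markers was 1965 to 4735 in restricted mice, 2536 to 3618 in lab chow mice and 4723 to 6866 in AIN-93 mice. The part of these cells in the Abca1 result was not tested. Against lab chow, restricted mice were at 76.3% for Abca1 (65.7 to 88.5, adjusted p = 0.0051 by limma). Against high fat, the Western diet was at 152% (131 to 177, adjusted p = 0.0011 by limma). Atherogenic and Western arrays overlapped, and the atherogenic level was 105% of the Western level (90.9 to 122, adjusted p = 0.67 by limma).

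The Abca1 result rests on 1 probe. The other 2 Abca1 probes never exceeded 4.28 and 3.93 on the log2 scale and were not kept. With no filter, the mean of all 3 probes gave Abca1 no call on any diet (adjusted p = 0.21 on the Western diet, 0.42 on the atherogenic diet and 0.62 under diet restriction by limma). In a fit of the Western and AIN-93 arrays alone the Western call was also lost (adjusted p = 0.091 by limma). By likeness over 27 arrays, the genes closest to Abca1 were Tmem150a (r = 0.88), Srebf1, the master regulator of fatty acid synthesis and itself a known target of liver X receptors (r = 0.86), and the lipoprotein lipase gene Lpl (r = 0.84). Mrpl15 and Gtf3a were most opposite (r = -0.83 each).

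Abcg1 was detected on 1 diet only. Its kept probe read 8.67, 8.14 and 8.16 on the atherogenic diet, against 6.51, 6.21 and 6.61 on the Western diet and 6.21, 6.17 and 6.32 on AIN-93. All 24 arrays outside the atherogenic diet lay below the detection level of 6.64, so the atherogenic level was at least 3.20-fold higher than on either diet, taking 6.64 as their level (adjusted p = 1.3e-08 against AIN-93 and 1.2e-07 against Western by limma). Because the probe was kept through the atherogenic mice alone, its call there was favored by the filter. The other Abcg1 probe never exceeded 3.50. With no filter, the mean of both probes put the atherogenic level at a fitted 2.37-fold of AIN-93 (adjusted p = 3.4e-05 by limma). Lab chow had the lowest mean, with 6.03, 5.99 and 5.54, and without a call (adjusted p = 0.15 by limma).

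Markers of Kupffer cells, the resident macrophages of the liver, were also highest on the atherogenic diet. Of 14 markers 11 were detected, and 4 of these rose on the atherogenic diet against AIN-93 and 0 fell, where 14.9% of all genes were called. Cd5l was at 449% of control (adjusted p = 6.2e-04 by limma) and Clec4f, a lectin specific to Kupffer cells, at 221% (adjusted p = 0.020 by limma). Against the Western diet 10 of 11 rose, where 17.8% of all genes were called. Western levels of these markers themselves lay below AIN-93 (median log2 difference -0.86, with 0 of 11 called). The count against the Western diet therefore does not measure a rise on the atherogenic diet alone. The summed intensity of the 11 markers was 10400 to 18710 in atherogenic mice, 2694 to 3816 in Western mice and 4723 to 6866 in AIN-93 mice. The part of Kupffer cells in the results on these diets was not tested. By likeness, Abcg1 stood closest to Tmem141 (r = 0.93), the mitotic gene Cdc20 (r = 0.93) and Gm6958 (r = 0.90), and most opposite to Dct (r = -0.91) and the bile acid gene Cyp8b1 (r = -0.87). Spearman rho for these 5 was between 0.35 and 0.53 in size, since r followed mainly the 3 atherogenic arrays.

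**Figure D4:**
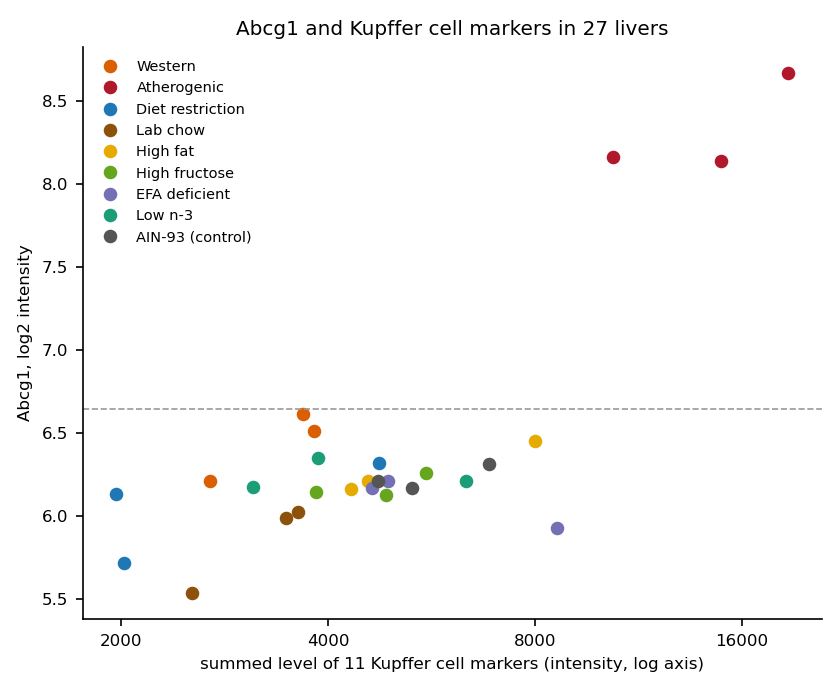
Abcg1 log2 intensity (y axis) against the summed intensity of 11 Kupffer cell markers on a log axis (x axis), 1 point per mouse, coloured by diet, with the detection level dashed. The 3 atherogenic mice lie apart at sums of 10400 or more and at 8.14 or above for Abcg1, and the other 24 mice lie below the dashed line.

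The receptor gene Nr1h3 itself had no call on any diet. Its lowest levels were in diet-restricted mice, at 7.15, 6.98 and 6.79, against 7.43, 7.46 and 7.42 on AIN-93. The groups did not overlap, and the level was 72.6% of control (56.2 to 93.9, unadjusted p = 0.017 and adjusted p = 0.11 by limma). It was called in 3 of 17 alternative analyses, whose adjusted p ran from 0.0097 to 0.28. On the atherogenic diet, where Abcg5, Abcg8 and Abca1 were higher, Nr1h3 read 7.35, 7.81 and 7.20, or 101% of control (78.5 to 131, adjusted p = 0.96 by limma). On the Western diet it read 7.39, 7.09 and 7.38, or 90.4% (69.9 to 117, adjusted p = 0.68 by limma). Diet means ran from 6.97 under diet restriction to 7.63 on the high-fat diet, and the mice of neighbouring diets in that order overlapped. Over 27 arrays r was -0.15 with Abcg5, -0.12 with Abcg8, 0.30 with Abca1, 0.18 with Abcg1 and -0.52 with Mylip. Over deviations from diet means r was 0.43 with Abcg5, 0.31 with Abcg8, 0.26 with Abca1, 0.30 with Abcg1 and -0.32 with Mylip. The genes most like Nr1h3 were Copz1 of vesicle coats (r = 0.85), Cib1 (r = 0.83) and Serpina10 (r = 0.82), and Golim4 (r = -0.79) and Samd8 (r = -0.75) were most opposite.

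Mylip was called under diet restriction, with 8.57, 7.63 and 7.63, against 6.97, 6.69 and 6.97 on AIN-93. This was 209% of control (135 to 325, adjusted p = 0.028 by limma), and against lab chow, at 6.59, 6.44 and 6.91, it was 245% (158 to 379, adjusted p = 0.0021 by limma). Replicate 1 of the restricted mice stood well above its other two. The call against AIN-93 was lost without that mouse, with a fold of 1.68 (adjusted p = 0.14 by limma). It was also lost without AIN-93 replicate 1, 2 or 3, with folds of 2.17, 1.96 and 2.17 (adjusted p = 0.053, 0.10 and 0.060 by limma), and with no filter at an unaltered fold of 2.10, when more genes were tested (adjusted p = 0.089 by limma), whereas the call against lab chow passed in each of its 16 alternatives. Mice differed most among themselves on the atherogenic diet, with 7.46, 6.32 and 7.44 and an SD of 0.65, or 115% of control (74.0 to 177, adjusted p = 0.75 by limma). Western mice had 6.71, 7.57 and 7.55, or 132% of control (85.3 to 205, adjusted p = 0.46 by limma). Mylip was most like Clip1 (r = 0.81), the adiponectin receptor gene Adipor1 (r = 0.78) and Angptl4, an inhibitor of lipoprotein lipase (r = 0.76). Its most opposite genes, Dnajb11 and Manf, both serve protein folding in the endoplasmic reticulum (r = -0.82 each).

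Among other known partners and targets of liver X receptors, Mlxipl and Apoc2 rose on both cholesterol diets and on the EFA-deficient diet, and 5 genes fell under diet restriction. Of a list of 16 such genes, 13 had a probe with 1 symbol, and all 13 were detected. The other genes, Nr1h2, Ncor1 and Arl4c, had no such probe and were not measured here. On the Western diet 2 rose and 0 fell, with a median log2 difference of 0.00, and on the atherogenic diet 3 rose and 1 fell, with a median of 0.10. Mlxipl, a glucose-responsive transcription factor, was at 211% of control on the atherogenic and 181% on the Western diet (adjusted p = 0.0047 and 0.023 by limma). Apoc2, the cofactor of lipoprotein lipase, was at 203% and 157% (adjusted p = 9.8e-04 and 0.030 by limma), and Lpl was at 568% on the atherogenic diet (adjusted p = 3.1e-04 by limma). The EFA-deficient diet gave Mlxipl at 187% and Apoc2 at 184% of control (adjusted p = 0.017 and 0.0039 by limma), and the high-fructose diet gave Apoc2 at 175% (adjusted p = 0.0075 by limma). Rxra, a gene of the partner RXR, fell to 67.0% on the EFA-deficient and 75.6% on the high-fructose diet (adjusted p = 0.0033 and 0.037 by limma). In all, 2 rose and 1 fell on the EFA-deficient diet, where 5.51% of all genes were called. On the high-fructose diet 1 rose and 1 fell, where 3.91% of all genes were called. Cyp7a1, the rate-limiting enzyme of bile acid synthesis and a target in mice, was at least 2.53-fold lower on the atherogenic diet (adjusted p = 0.035 by limma). Under diet restriction 0 rose and 5 fell, with a median of -0.05, among them Srebf1 at 37.2% of control and Fasn, fatty acid synthase, at 13.8% (adjusted p = 0.0065 and 0.0094 by limma). Against lab chow 1 of the 13 rose and 2 fell under diet restriction: Lpcat3 was higher, Pltp and Lpl were lower, and Srebf1 at 65.8% and Fasn at 58.7% of the lab chow level had no call (adjusted p = 0.15 and 0.41 by limma). The shares of all genes called were 8.78% on the Western, 14.9% on the atherogenic and 29.5% on the restricted diet, and 36.8% for restriction against lab chow, and the counts of this list and the lists after it are to be read beside them.

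Genes of cholesterol synthesis were lower on both cholesterol diets, where Abcg5 and Abcg8 were higher. Of a list of 16 SREBP2 targets and lipoprotein receptor genes, 13 had a probe with 1 symbol, and 11 of these were detected. On the Western diet 0 rose and 10 fell, with a median log2 difference of -2.38, and on the atherogenic diet 0 rose and 10 fell, with a median of -2.43. Idi1, an isomerase of the pathway, was at 6.34% of control on the Western diet (adjusted p = 1.5e-10 by limma) and at 6.04% on the atherogenic diet (adjusted p = 1.2e-10 by limma). Squalene epoxidase, Sqle, was at least 4.09-fold lower on each (adjusted p = 1.3e-09 for Western and 2.4e-09 for atherogenic by limma). Between the cholesterol diets, Abcg5 was at 266% of the Western level on the atherogenic diet, and 17.8% of all genes were called. In that comparison 0 of the 11 rose and 1 fell, Fdps, to 46.7% of the Western level (adjusted p = 0.026 by limma). Under diet restriction 5 fell, with a median of -0.73, and 1 rose. The gene that rose was Vldlr, a lipoprotein receptor that Mylip is known to target, at least 3.02-fold higher (adjusted p = 2.0e-05 by limma). Its mean log2 intensity was 8.24 in restricted mice, against 4.42 on AIN-93 and 5.85 on lab chow, both below the detection level. No other diet called Vldlr higher than AIN-93. Its means on the remaining diets are not given here, so the filter may have favored its call, as it did for Abcg1. Hmgcs1, an early enzyme of the pathway, fell to 33.5% of control under diet restriction (adjusted p = 8.8e-04 by limma).

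Of 6 other transporters of the canalicular membrane, 3 rose on the Western diet, 4 rose on the atherogenic diet, and 2 rose and 3 fell under diet restriction. Abcb4, which supplies phospholipid to bile, was at 215% of control on the atherogenic and 172% on the Western diet (adjusted p = 5.2e-05 and 0.0022 by limma). Abcb11, the bile salt export pump, was at 181% on the atherogenic diet (adjusted p = 1.6e-05 by limma). Abcc2, which exports conjugated bilirubin, rose on 6 of 8 diets, at 202% on the Western, 195% on the atherogenic, 218% on the restricted, 173% on the high-fat and 142% on the EFA-deficient diet, and on lab chow (adjusted p = 0.012 by limma). Abcb4 also rose on the high-fat diet, to 165% of control (adjusted p = 0.0041 by limma). Abcb1a, a drug efflux pump, was at least 1.12-fold higher under diet restriction, since no control array reached the detection level (adjusted p = 6.9e-14 by limma). It was kept through the restricted mice, with a mean log2 intensity of 6.81, so the filter favored this call, as for Abcg1. Abcb1a is among the transporters counted above as risen under diet restriction and on the atherogenic diet. It was called higher on the atherogenic diet too (adjusted p = 5.1e-08 by limma), but its mean log2 intensities of 4.45 there and 2.54 on AIN-93 both lay below the detection level, so no fold is given. Of a list of 17 genes of sterol handling, 15 had a probe with 1 symbol, and 12 of these were detected. Of the 12, 1 rose and 1 fell on the Western diet. On the atherogenic diet 1 rose and 2 fell, and on the restricted diet 3 rose and 2 fell. Scarb1 was at 258% of control on the atherogenic diet (adjusted p = 3.3e-05 by limma). Cyp8b1, which sets the share of cholic acid in bile, was at least 40.9-fold lower there (adjusted p = 1.2e-11 by limma) and at 16.2% of control under diet restriction (adjusted p = 1.7e-04 by limma). Npc1, which releases cholesterol from lysosomes, was at 244% under diet restriction (adjusted p = 6.0e-04 by limma).

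**Figure D5:**
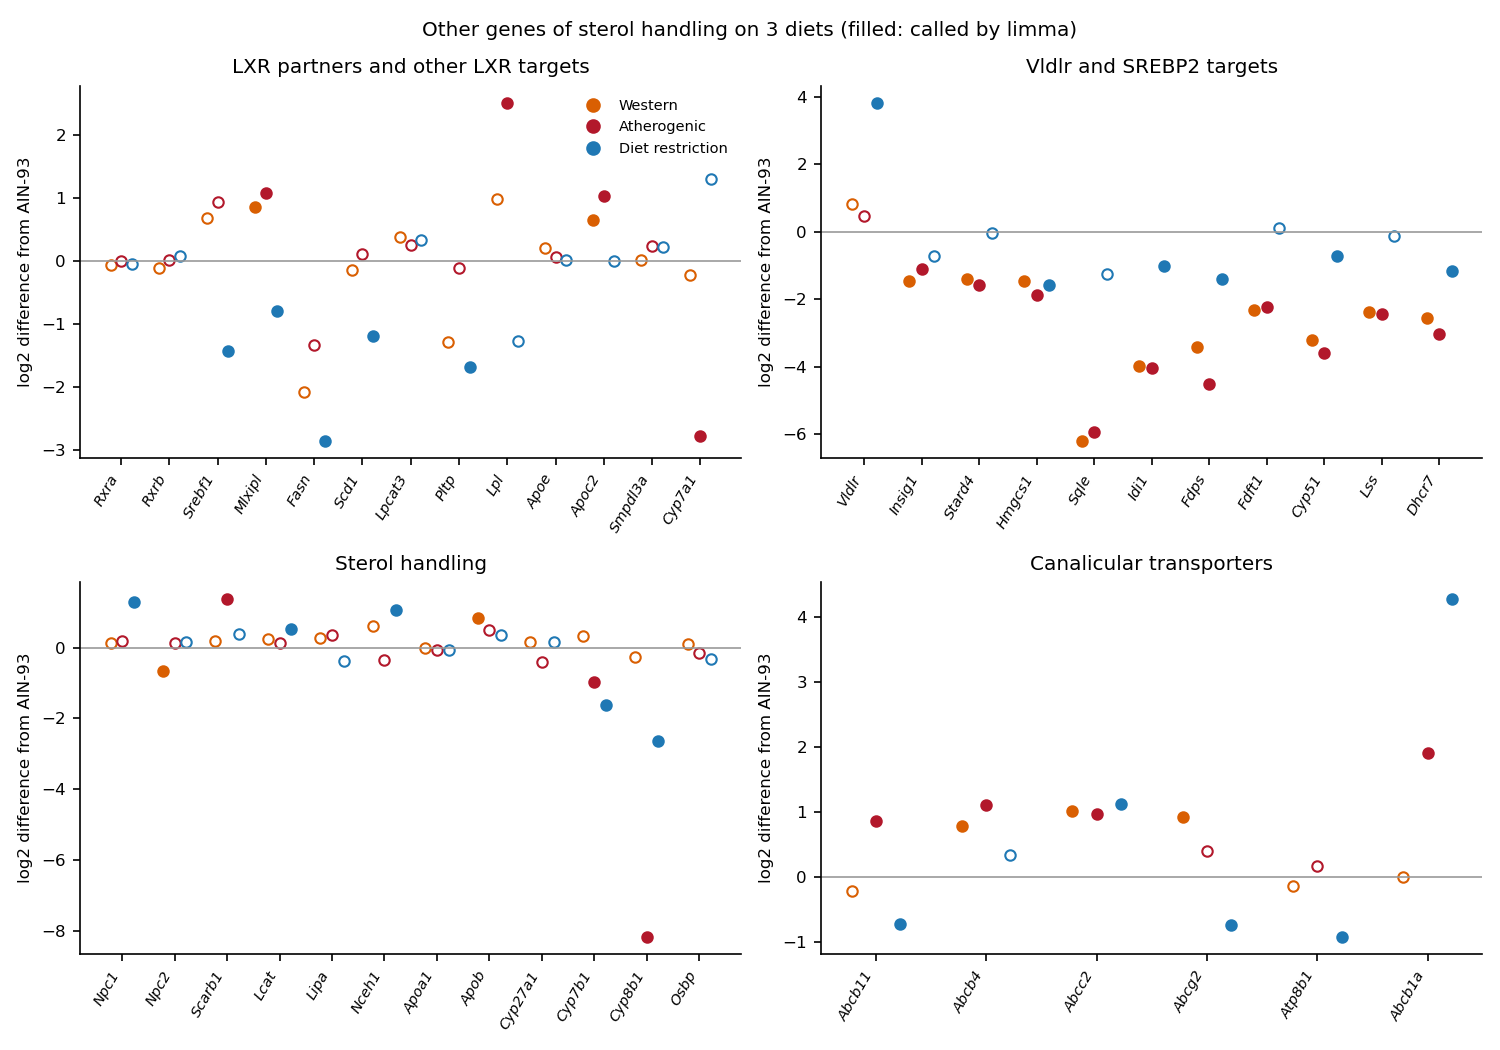
Fitted log2 difference from AIN-93 (y axis) of the detected genes of 4 lists (x axis) on the Western, atherogenic and restricted diets, with filled points for limma calls. In the panel of Vldlr and SREBP2 targets 10 of 11 points are filled and below 0 on each of the Western and atherogenic diets, and values of genes below the detection level are fitted values, not bounds.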

How the data were processed

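The authors hybridized liver RNA to Affymetrix mouse arrays and preprocessed them with GCRMA, which corrects background and normalizes arrays. The deposited values are log2 intensities, used as they are. Array medians lay between 2.42 and 2.48, all arrays share a lowest value of 2.29, and 3 mice per diet limit the precision. Symbols came from the array's annotation, and 932 probes with several symbols and 9211 without one were not used. Kept probes of a gene were averaged. Diets were compared with limma 3.58.1 under R 4.3.3 in 1 fit of 27 arrays. P was adjusted by Benjamini and Hochberg over 6478 genes and 8 diets together, and for each further pair on its own, at 0.05. Where all arrays of 1 diet lay below the detection level, a fold is a bound against that level.

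Alternatives were no filter, a filter at an intensity of 200, the brightest probe, a trend and robust prior, a fit of 2 diets alone, array weights, centred arrays, a second quantile normalization, the replicate number as block, each array left out, p adjusted within each diet, Dunnett's test per gene as in the methods (multcomp 1.4.28), and no low n-3 arrays, which was added after seeing the data. The genes and lists were chosen with earlier results of these data known. Named besides the 6 members are genes from up to 4 called ones per list and diet, with the largest differences and no overlap of arrays, and per member the 3 genes most like it and the 2 most opposite by Pearson r. Some genes of the lists are not analysed here. Promoter windows are those of RefSeq on GRCm38.p6, and none of Abcg1 was used.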

Additional observations from a re-analysis of the deposited data

How the results depend on the processing

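Of 66 differences of the 6 members, 21 were called, and none of these changed direction under any alternative. The calls of Abcg5 and Abcg8 passed under every alternative. Those of Abcg1 passed too, but alternatives other than no filter kept a filter on low signal, which favored them. With no filter, the log2 difference of Abcg1 between the atherogenic diet and AIN-93 fell from 2.09 to 1.24. With no filter on low signal, the count under diet restriction against AIN-93 was 2 in place of 4, since Abca1 was averaged with 2 probes near the lowest value and Mylip missed the threshold, and the Abca1 difference of the atherogenic from the Western diet was -0.096. Abca1 was then also not called for Western against high fat (adjusted p = 0.31) or for diet restriction against lab chow (adjusted p = 0.89 by limma). With array weights, 1 member, Abcg1, was called on lab chow against AIN-93 in place of 0 (adjusted p = 0.034 by limma), and Nr1h3 under diet restriction against both AIN-93 (adjusted p = 0.0097 by limma) and lab chow (adjusted p = 0.012 by limma). Nr1h3 was also called against AIN-93 in a fit of the 2 diets alone (adjusted p = 0.029) and with p adjusted within each diet (adjusted p = 0.045).

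Changes of sign occurred in 34 of 1135 alternative values, all between differences without a call, and lay between -0.33 and 0.17 on the log2 scale. Of these, Nr1h3 on the atherogenic diet was -0.077 with array weights, -0.033 with centred arrays, -0.062 with quantile normalization again and between -0.16 and 0.15 with each mouse left out. Abca1 on the atherogenic against the Western diet was -0.0036 with centred arrays, and Abcg8 on lab chow ran from -0.21 to 0.010 with each mouse left out.

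Replicate numbers did not pair the mice: same-numbered arrays deviated from their diet means with median correlations of 0.02, -0.01 and -0.0012. With the replicate number as a block, 3 members were called on the Western diet, 4 on the atherogenic diet and 4 under diet restriction, as without it. Without the low n-3 arrays no call changed. Genes near the detection level, Abcg1 and Mylip, lie partly below it and their differences there are not resolved, and the filter at an intensity of 200 left no value of Nr1h3.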
